A study of Mus musculus with 4 samples.

Results

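DNMT3B is one of the enzymes that place new methyl groups on cytosines, mostly where a cytosine is followed by a guanine (CpG). Such methylation at promoters and at the regulatory DNA before them is known to accompany gene silencing, while many promoters rich in CpG stay unmethylated in normal tissue. The regions described here are broad stretches of DNMT3B enrichment, called islands by the SICER program, that lie wholly upstream of the gene with which they are paired. Such an island ended before the start of its gene on the plus strand, or began past the gene's end coordinate on the minus strand, by the deposited positions. Of 8242 islands in the list, 7815 were paired with a messenger RNA transcript (an accession starting with NM_), and 913 of these (11.7%, exact 95% binomial interval 10.98 to 12.4) lay wholly upstream. They belonged to 799 genes and covered 5.36 Mb.

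The chromatin came from metastases that 4T1 cells, a mammary tumour line from the BALB/c strain of mouse, had formed in the lung. The 2 DNMT3B ChIP libraries and 2 input libraries, made with no antibody, both carry the lung labels 3 and 5. The labels do not say whether these are separate animals, or how far host lung tissue was removed. Islands are listed for the series as a whole without counts or scores, so the depth behind them is unknown and no island has a value per library. Intervals and p-values below cover the counting of islands or genes only, and treat neighbouring islands as independent. The deposited gene positions lay within 1 kb of the RefSeq table of GRCm38 at both ends for 64 of the 913 upstream islands (7.01%), although the submitters' processing notes name mm10, the same assembly. The build of the positions is therefore not known, and they are given as deposited.

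Upstream islands closest to a gene reached almost to its start. Septin9, which encodes a filament-forming GTPase and whose name a spreadsheet date had replaced, had an island of 12200 bp that ended 27 bp before the deposited start, on chromosome 11 from 117181400 to 117193599. That start belongs to 1 of several listed transcripts, and the island overlapped another transcript of the same gene. Other near islands were those of Gm17296 at 35 bp and of Bahcc1, a chromatin protein gene with a BAH domain, at 61 bp. The anion exchanger gene Slc4a2 had one at 139 bp that also lay over the start of Cdk5, and Gal, the gene of the neuropeptide galanin, had one at 143 bp. Bcar1, an adaptor of integrin signalling, lay at 164 bp, Pmepa1, an inhibitor of TGF-beta signalling, at 166 bp, Ccdc85c at 173 bp and Adap1 at 182 bp. Just beyond the rule lay islands of Pcdh1, Acp5 and S100a16, which reached 17, 43 and 56 bp past the gene start. At the far end, islands of Slc16a3 and Slc36a3 lay 9998 and 9992 bp before the gene, since the authors paired islands with genes extended by 10 kb.

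The DNA just before the start of these genes is shown as the promoter sequence of the genes nearest to an upstream island. Of the 10 genes, 5 had a single promoter window in the RefSeq table and their 250 bases before the start are printed 5′ to 3′ on the gene's strand, with every CpG in capitals. Positions are those of GRCm38.p6 and not those of the islands. For genes whose deposited positions do not match GRCm38, whether the island overlaps the printed bases is not known. Gm17296 is named Tarbp1 in RefSeq. Gal was the one of the 5 whose deposited positions match GRCm38; its RefSeq start lies 87 bp farther upstream than the deposited one, and the island lies 56 bp before it.
Gm17296 (chr8:126475066-126475315, - strand): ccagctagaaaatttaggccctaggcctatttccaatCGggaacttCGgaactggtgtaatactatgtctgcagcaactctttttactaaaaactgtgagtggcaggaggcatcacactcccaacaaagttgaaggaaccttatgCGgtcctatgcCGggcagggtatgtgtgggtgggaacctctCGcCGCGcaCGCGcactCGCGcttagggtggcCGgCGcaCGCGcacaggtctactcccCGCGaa
Bahcc1 (chr11:120232697-120232946, + strand): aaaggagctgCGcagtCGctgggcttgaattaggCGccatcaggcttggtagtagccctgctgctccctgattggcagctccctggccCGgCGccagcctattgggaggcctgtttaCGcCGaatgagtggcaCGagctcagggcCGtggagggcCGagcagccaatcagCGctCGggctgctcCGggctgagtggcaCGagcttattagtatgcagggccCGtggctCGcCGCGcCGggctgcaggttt
Gal (chr19:3414545-3414794, - strand): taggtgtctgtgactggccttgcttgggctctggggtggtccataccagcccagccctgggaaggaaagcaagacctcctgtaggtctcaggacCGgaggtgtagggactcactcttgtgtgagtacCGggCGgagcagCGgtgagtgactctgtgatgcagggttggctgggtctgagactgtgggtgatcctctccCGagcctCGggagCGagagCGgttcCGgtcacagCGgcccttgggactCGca
Ccdc85c (chr12:108275394-108275643, - strand): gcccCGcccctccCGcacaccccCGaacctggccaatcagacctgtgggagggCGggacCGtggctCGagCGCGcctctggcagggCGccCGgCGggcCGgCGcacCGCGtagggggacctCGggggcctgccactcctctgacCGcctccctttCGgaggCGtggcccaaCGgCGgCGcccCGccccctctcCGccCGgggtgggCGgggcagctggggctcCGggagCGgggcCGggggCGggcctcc
Adap1 (chr5:139325465-139325714, - strand): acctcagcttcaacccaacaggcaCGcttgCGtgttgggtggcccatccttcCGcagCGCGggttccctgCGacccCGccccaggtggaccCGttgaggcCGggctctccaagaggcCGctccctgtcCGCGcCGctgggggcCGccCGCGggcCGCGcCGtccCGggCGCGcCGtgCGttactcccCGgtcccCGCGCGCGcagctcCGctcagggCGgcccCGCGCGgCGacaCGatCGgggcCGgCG

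These 5 stretches differed in CpG content. Adap1 held 39 CpGs at 77.6% GC and Ccdc85c held 30 at 80.8% GC. Bahcc1 held 19, Gm17296 held 17 and Gal held 11. The ratio of observed to expected CpGs, which corrects for base composition, was 1.05 for Adap1, 0.893 for Gm17296, 0.736 for Ccdc85c, 0.723 for Bahcc1 and 0.469 for Gal. The GC box GGGCGG, searched on both strands, was found in Gal, Ccdc85c and Adap1.

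Across all genes with an upstream island and none over their start, promoters were less often CpG-rich than at genes with a downstream island. This comparison was chosen after the data were seen, in place of a planned one that is void. Genes with islands on both sides were kept in the upstream group. A window of 300 bases, from 250 before to 50 after the start, was called CpG-rich at a ratio of observed to expected CpG of at least 0.6 and a GC content of at least 50%. Windows were given for 422 of the 525 genes with an upstream island (80.4%), and 236 of them were CpG-rich (55.9%, exact 95% interval 51.0 to 60.7). At genes with a downstream island and none upstream or over the start, 359 of 550 were (65.3%, 61.1 to 69.3). The odds ratio was 0.675 (adjusted p = 0.00606 by a two-sided Fisher's exact test, with adjustment over 7 tests). Among all 17492 protein-coding genes with a window, 45.8% were. With an island within 2 kb upstream, 68 of 99 genes were CpG-rich (68.7%). That share did not differ detectably from that of downstream genes, whose islands lay at any gap (adjusted p = 0.6996, Fisher's exact test). With the ratio set at 0.75 the share was 41.5% at genes with an upstream island and 48.0% at genes with a downstream one, and the difference missed the threshold (adjusted p = 0.0771, Fisher's exact test).

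The median promoter window held 18 CpGs at genes with an upstream island and 19 at genes with a downstream one, against 13 over all protein-coding genes. A GC box stood in 61.8% of windows at genes with an upstream island, in 64.0% at genes with a downstream one and in 46.3% over all protein-coding genes. The TATAAA box, on either strand, stood in 7.82% of windows at genes with an upstream island, in 6.36% at genes with a downstream one and in 13.3% over all. The planned test against genes that carry an island over their start is void, since 78.7% of those genes have a window and the minimum for a test was 80%. Of the 914 such genes with a window, 593 were CpG-rich (64.9%, 61.7 to 68.0), which is given as a description, as are the values over all protein-coding genes, of which 79.9% have a window.

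The gap to the gene is described without a test, since an island that touches the start leaves the upstream class and the rule thereby bears on how many lie near it. In the first kilobase before the start lay 73 of the 913 islands (7.996%), and in the first kilobase past the gene end lay 169 of the 1173 downstream islands (14.4%). Within 2 kb lay 159 upstream islands (17.4%, 15.0 to 20.03) and 279 downstream islands (23.8%, 21.4 to 26.3). The fullest bin of upstream islands, with 115, lay between 9 and 10 kb from the gene. The median gap was 5438 bp upstream and 4694 bp downstream. Where deposited gene positions match GRCm38, 14 of 64 upstream islands (21.9%) and 19 of 79 downstream islands (24.1%) lay within 2 kb.

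**Figure D1:**
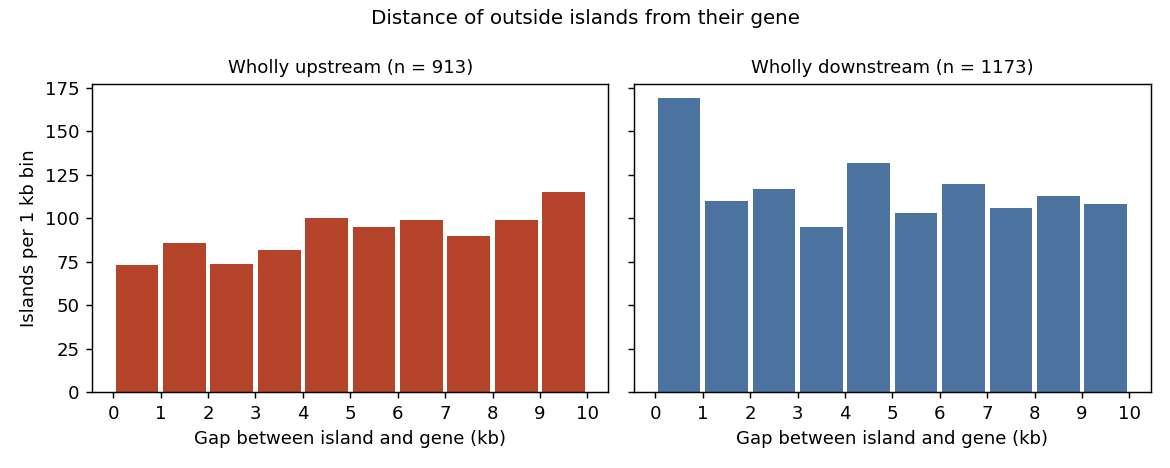
Number of islands per 1 kb of gap (x axis, kb) between island and gene, for islands wholly upstream (left) and wholly downstream (right). Upstream islands number 73 in the first kilobase and 115 in the last, while downstream islands peak at 169 in the first.

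The width of upstream islands ran between 200 and 41000 bp, and their quartiles were 2800 and 7400 bp around a median of 4600 bp. Downstream islands had the same median, and their quartiles were 2800 and 7000 bp. A width of 5 kb or more was reached by 438 upstream islands (48.0%, 44.7 to 51.3) and by 524 downstream islands (44.7%, 41.8 to 47.6), a difference that did not pass (adjusted p = 0.202, Fisher's exact test). Of all coding-gene islands, 48.5% were that wide. Islands over a gene start were wider, with a median of 6000 bp, but a wide island is likelier to touch its gene and this was not tested.

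Of the 10 widest upstream islands, 4 overlapped another listed gene. That of C330006K01Rik, named Ap5z1 in RefSeq, spanned 41000 bp on chromosome 5 from 142892600 to 142933599, ended 6285 bp before the gene and overlapped Foxk1, a forkhead transcription factor gene. The island of Inpp5j, an inositol polyphosphate phosphatase gene on chromosome 11, spanned 35600 bp. The island of Sec14l5 spanned 35400 bp on chromosome 16 from 5104600 to 5139999, and lay over the start of Ppl, which encodes the junctional protein periplakin. That of 6030468B19Rik, with 32200 bp, lay over the start of Tmc6. The islands of Tubb3, a tubulin gene of neurons (28600 bp, over part of Tcf25), Necab2 (25400 bp) and the potassium channel gene Kcnj4 (24400 bp) came within 464, 219 and 929 bp of their gene. Those of Cant1, Pop7 and 1110017F19Rik had 27800, 27400 and 26600 bp.

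In all, 237 of the 913 upstream islands (26.0%) overlapped the body of another gene in the list. Downstream islands did so in 334 of 1173 cases (28.5%), and 10.1% of all coding-gene islands did. Another gene's start lay under 53 upstream islands (5.81%) and 72 downstream islands (6.14%). It lay under 5.06% of islands over their own gene's start and 0.877% of those past it. The list holds only genes paired with an island, so these are the overlaps that it can show. A further 19 upstream islands overlapped another listed transcript of their own gene, among them those of Septin9, Vegfa, Ptprs, Tiam1, Speg and Rgs12. These are upstream of the paired transcript only. By the order of genes in GRCm38, 45 of 600 genes with an upstream island (7.50%) had a divergent neighbour, a gene on the other strand with its start within 1 kb. The 185 genes with islands on both sides were left out, and for 14 further genes on each side the neighbour could not be determined. Of genes with a downstream island 55 of 826 did (6.66%), and the difference did not pass (adjusted p = 0.6996, Fisher's exact test).

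Most genes had a single upstream island. Of the 799 genes, 690 had 1, 104 had 2 and 5 had 3. The 5 were Six5, a homeobox gene, Limk2, a kinase of cofilin, Lrg1, a secreted glycoprotein gene, Cyp2w1, a cytochrome P450 gene, and B3gnt1 (B4gat1 in RefSeq), a glycosyltransferase gene. The islands of Six5, on chromosome 7, had gaps of 693, 5293 and 9693 bp and widths of 3400, 3800 and 800 bp. Those of Cyp2w1, on chromosome 5, had gaps of 3771, 6771 and 9771 bp and widths of 2400, 2200 and 1600 bp. The 3 islands of Lrg1 all overlapped its neighbour Sema6b, and the 3 of Limk2 were paired with 2 transcripts and each overlapped another Limk2 transcript. Of the 799 genes, 293 (36.7%) had upstream islands alone, while 274 also had an island over the start, 330 one past the start on the gene and 185 one wholly downstream.

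Chromosome 11 held 155 of the upstream islands (16.98%), chromosome 8 held 102, chromosome 5 held 95 and chromosome 2 held 86, and the X held none of its 4 coding-gene islands upstream. As a share of a chromosome's coding-gene islands, upstream ones made up 16.01% on chromosome 19 (12.5 to 20.1), 15.6% on chromosome 17 (12.5 to 19.2) and 13.8% on chromosome 11 (11.8 to 15.9). The lowest shares among chromosomes with over 300 coding-gene islands were 9.34% on chromosome 1 (6.95 to 12.2) and 9.55% on chromosome 16 (6.70 to 13.1). Shares were not tested between chromosomes. By strand, 480 upstream islands (52.6%) belonged to genes on the plus strand.

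**Figure D2:**
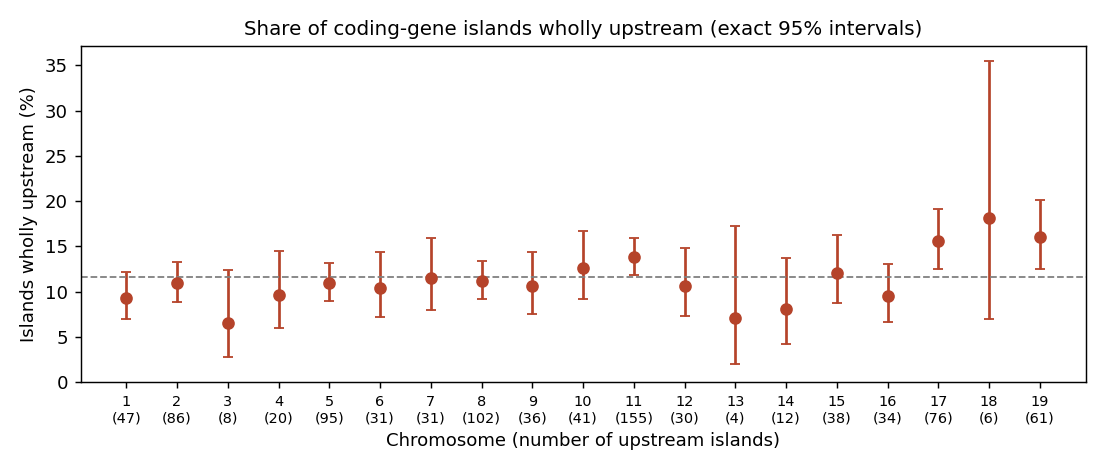
Share of each chromosome's coding-gene islands that lay wholly upstream (y axis, %), with exact 95% intervals and the number of upstream islands under each chromosome. The dashed line is the share over all chromosomes, 11.7%, and the intervals of chromosomes 11, 17 and 19 lie above it.

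Of all 3749 paired coding genes, 21.3% had an upstream island, and the counts in pathway lists are set beside that share. Of 146 genes in 15 lists of pathways and cell markers that had any island, 24 (16.4%) had an upstream one, with 25 islands in all. Shares above the background were those of prostaglandin E2 genes (2 of 5) and IL6 and STAT3 signalling (35.7%). Those of developmental transcription factors (22.2%) and tumour suppressors (21.4%) were near the background. Each rests on at most 5 genes with an upstream island and was not tested. Gaps of the 25 islands ran between 232 and 9681 bp with a median of 5101 bp, and their widths between 400 and 15800 bp. None of the 25 held a narrow region (exact 95% interval up to 13.7%), where 5.81% of all upstream islands did. For 7 of the 24 genes the upstream islands were the only ones, and 9 also had an island over the start.

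In IL6 and STAT3 signalling, in which cytokine receptors act through JAK kinases, 5 of 14 genes with an island had one upstream. Lif, the gene of a ligand of the IL6 family, had an island on chromosome 11 from 4148400 to 4154999, which ended 2571 bp before the gene. Tyk2, a JAK family kinase gene, had one at a gap of 4281 bp that also overlapped Cdc37. Of the SOCS genes, whose products inhibit this signalling, Socs5 had an island of 6400 bp on chromosome 17 from 87500000 to 87506399, at a gap of 619 bp. That of Socs2 had 2600 bp at a gap of 1483 bp, and that of Socs1 had 4200 bp at a gap of 4171 bp, on chromosome 16 from 10789800 to 10793999. Socs2 and Socs5 had no other island, whereas Lif, Tyk2 and Socs1 also had one over the start.

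In Notch signalling 3 of 15 genes with an island had one upstream. Jag2, a ligand gene, had an island of 11600 bp on chromosome 12 from 114168400 to 114179999, which ended 694 bp before the gene and overlapped Nudt14. The ligand gene Dll4 had one of 3800 bp at 9520 bp, and Lfng, whose product adds sugars to Notch receptors, one of 4400 bp at 7895 bp. In Wnt signalling it was 4 of 25. The ligand gene Wnt9a had an island of 4800 bp only 232 bp before its start, on chromosome 11 from 59115400 to 59120199. The ligand genes Wnt3 and Wnt10b had islands at 5289 and 7419 bp, and Sfrp1, a secreted inhibitor of Wnt ligands, one of 6000 bp at 6174 bp on chromosome 8.

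In PI3K and Akt signalling 2 of 15 genes with an island had one upstream, Rptor, a subunit of the mTORC1 complex, at 1509 bp and the kinase gene Akt2 at 8079 bp. TGF-beta and BMP signalling had 2 of 12. Smurf1, a ubiquitin ligase gene, had an island of 15800 bp at 5101 bp, and Ski, a corepressor of Smad proteins, one of 7600 bp at 8556 bp. Among tumour suppressors, 3 of 14 had one: Ing1, a chromatin reader, at 3266 bp with an island over the start of Cars2, Rassf5 at 9445 bp and the kinase gene Stk11 at 9681 bp with an island over the start of Sbno2. Of prostaglandin E2 genes, 2 of 5 had one, the synthase gene Ptges2 at 6210 bp and the transporter gene Slco2a1 at 6419 bp. Krt8, a keratin of simple epithelia, was 1 of 11 in the epithelial-mesenchymal transition list, with islands of 400 bp at 2027 bp and of 5800 bp at 3027 bp. Of developmental transcription factors, 2 of 9 had one, Sox4 at 3649 bp and Gata2 at 8058 bp.

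No upstream island was paired with any of 13 NF-kB signalling genes that had islands, nor with any of 6 DNA methylation genes, 7 endothelial and stromal markers, 3 imprinted genes or 2 lung epithelium markers. None of 20 immune cell markers had an island of any class, where 17.1% of all protein-coding genes had one.

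**Figure D3:**
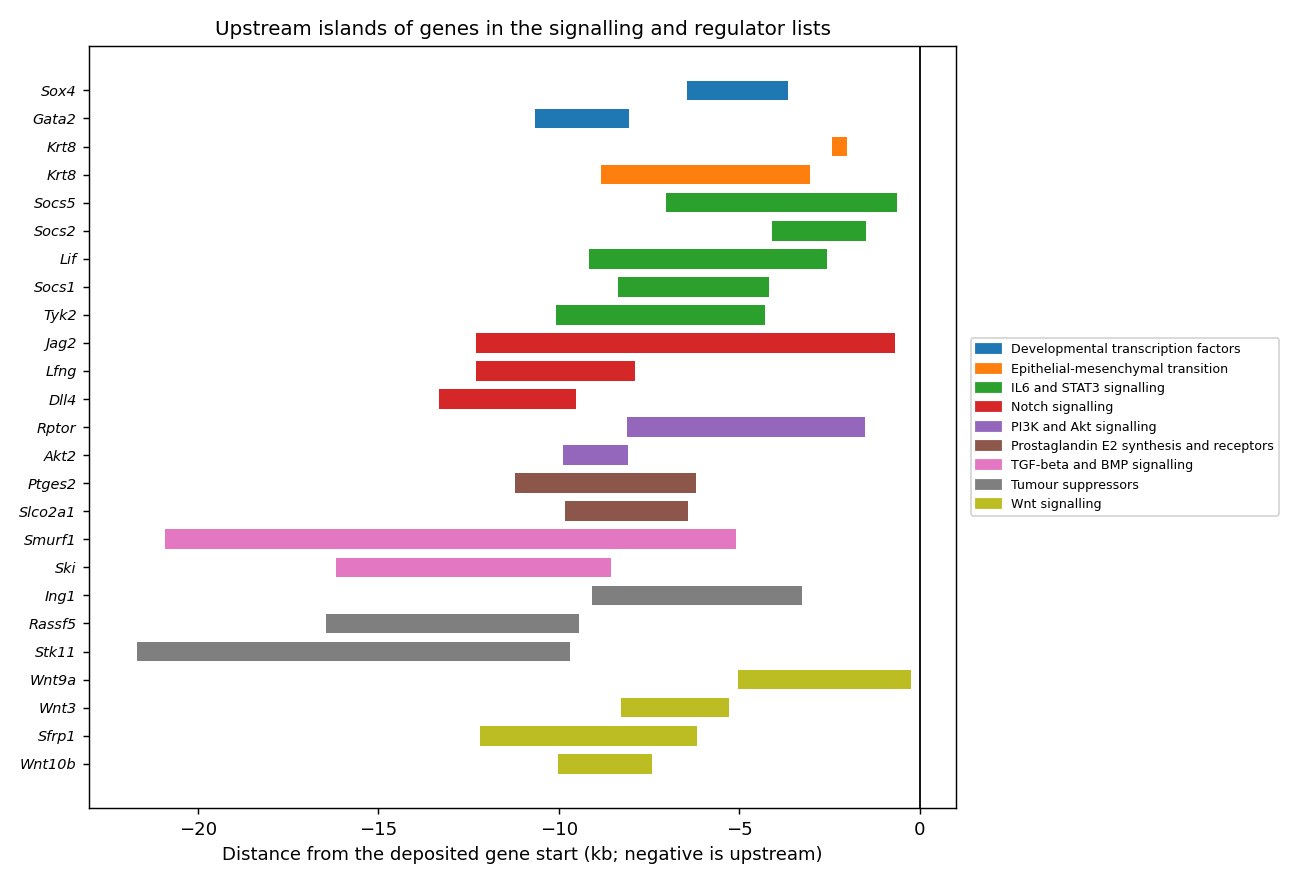
Upstream islands of genes in the pathway lists, each bar spanning the island on an axis of distance from the deposited gene start (kb, negative is upstream), coloured by list. The islands of Wnt9a, Socs5 and Jag2 end 232, 619 and 694 bp before the start, and that of Stk11 ends 9681 bp before it.

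Few upstream islands held a narrow region of the MACS list, which a separate caller made for sharp enrichment. At least 1 bp was shared with a narrow region by 53 of the 913 (5.81%, 4.38 to 7.52), against 4.79% of all coding-gene islands. Downstream islands did so in 68 of 1173 cases (5.80%, 4.53 to 7.29), and no difference was detected (adjusted p = 1, Fisher's exact test). Islands over a gene start did so in 193 of 1166 cases (16.6%, 14.5 to 18.8), far more often than upstream islands (adjusted p = 8.21e-14, odds ratio 0.311, Fisher's exact test). Islands past the start on the gene did so in only 60 of 4563 cases (1.31%, 1.005 to 1.69), less often than upstream islands (adjusted p = 1.33e-13, odds ratio 4.63, by the same exact test). This last comparison was chosen after its shares were seen. Among islands of 3 kb to 8 kb the shares were 5.58% upstream, 14.3% over the start and 0.841% past it.

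Narrow regions were found more often where deposited gene positions match GRCm38, in each of the 4 classes. There 12 of 64 upstream islands held one (18.8%), and where positions differ 41 of 849 did (4.83%). For islands over the start the shares were 59.0% and 13.5%. Upstream islands stood below those over the start in both sets of genes (adjusted p = 4.15e-06 and 1.54e-10, Fisher's exact test), and above those past the start in both (adjusted p = 0.0111 and 1.37e-11, by the same exact test). Agreement of positions was concentrated by chromosome. It held for 66.3% of coding-gene islands on chromosome 16, 37.0% on chromosome 19 and 9.09% on chromosome 8. On the other chromosomes it was at most 3.03%. The split is thus largely one by chromosome. The part of the positions in these counts cannot be told apart from that of the chromosome and was not tested. MACS positions are finest, in steps of 10 bp, in the first 10 Mb of a chromosome, and there 11 of 73 upstream islands held a narrow region (15.1%) and 36 of 79 islands over the start did (45.6%). By chromosome, 15 of 155 upstream islands held one on chromosome 11 (9.68%), 8 of 61 on chromosome 19 (13.1%) and 7 of 34 on chromosome 16 (20.6%), and no other chromosome had more than 4.

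**Figure D4:**
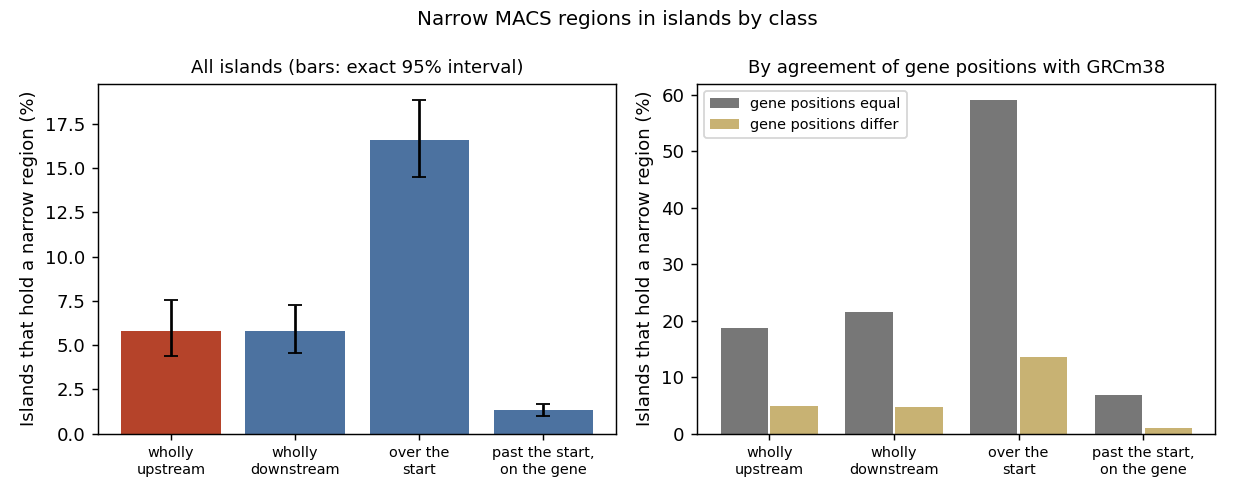
Share of islands that held a narrow region (y axis, %), by place relative to the paired gene, over all coding-gene islands with exact 95% intervals (left) and split by agreement of gene positions with GRCm38 (right). Upstream islands stand at 5.81%, near downstream islands at 5.80% and below islands over the start at 16.6%.

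Most narrow regions inside upstream islands overlapped another gene, a share that the rule largely sets. The rule places each island outside its paired transcript, so a gene under the island is mostly another one. The matching share for downstream islands was not computed, and the counts are a description. Of 71 such regions, 46 (64.8%, 52.5 to 75.8) overlapped a gene other than the paired one by the wording of the MACS list, and 9 lay within 1 kb upstream of another gene. The island upstream of Lmnb2 held a region on Gadd45b, a stress-response gene linked to DNA demethylation. That upstream of Dus1l held a region in an intron of Fasn, the fatty acid synthase gene, and that upstream of Fibp held 2 on Fosl1, an AP-1 subunit gene. The island upstream of Rin1, on chromosome 19 from 5037600 to 5044199, held 4 regions, 2 on B4gat1, 1 on Brms1, named for metastasis suppression, and 1 at 94 bp before it. The island upstream of Dgcr14 held 3 at Slc25a1, the mitochondrial citrate carrier gene, and those upstream of Sssca1 and Snx15 held 2 each at Ltbp3 and Arl2. Islands upstream of Fau, Lrfn4 and Sec14l5 held 2 each, at Syvn1, Rce1 and Ppl. Of upstream islands over another listed gene's start, 15 of 53 held a narrow region (28.3%, 16.8 to 42.3), and of the others 38 of 860 did (4.42%, 3.15 to 6.01). These shares were not matched for width. Upstream islands with a narrow region had a median width of 6400 bp, and those without had 4600 bp.

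In 9 of the 53 islands the paired gene was itself nearest to a narrow region, with 14 regions. Of these regions, 6 lay upstream of the gene. By the MACS list, those of Pdgfa, a growth factor gene, 1700081L11Rik (Kansl1 in RefSeq) and Tnrc18 lay 92, 394 and 933 bp upstream. Those of Bahcc1, Ndufa4l2 and Tbx1 lay 1260, 2994 and 4937 bp upstream. MACS positions are rounded in steps of up to 1000 bp, so the shorter of these distances are approximate. For Tbx1 the distance is that from the start of the transcript in the SICER list. Another region of the Tbx1 island, 3688 bp before that start, overlapped Tbx1, so a longer Tbx1 transcript lies nearer. The Pdgfa island itself lay 893 bp before the gene. The other 8 regions overlapped the paired gene, although their island lay before the start of the transcript that the SICER list names. They were 4 regions of Ptprs, a receptor tyrosine phosphatase gene, 2 of Vegfa, the main growth factor gene of blood vessels, and 1 each of Ece2 and Tbx1, a T-box transcription factor gene. The Ece2 island held 2 more regions, counted above with Camk2n2, that are also worded as in an intron of Ece2. The Vegfa regions spanned 46168100 to 46168300 and 46168900 to 46169100 of chromosome 17. They lay 6088 and 6888 bp before the listed start yet were worded as contained within Vegfa. For these genes upstream depends on which transcript is taken.

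**Figure D5:**
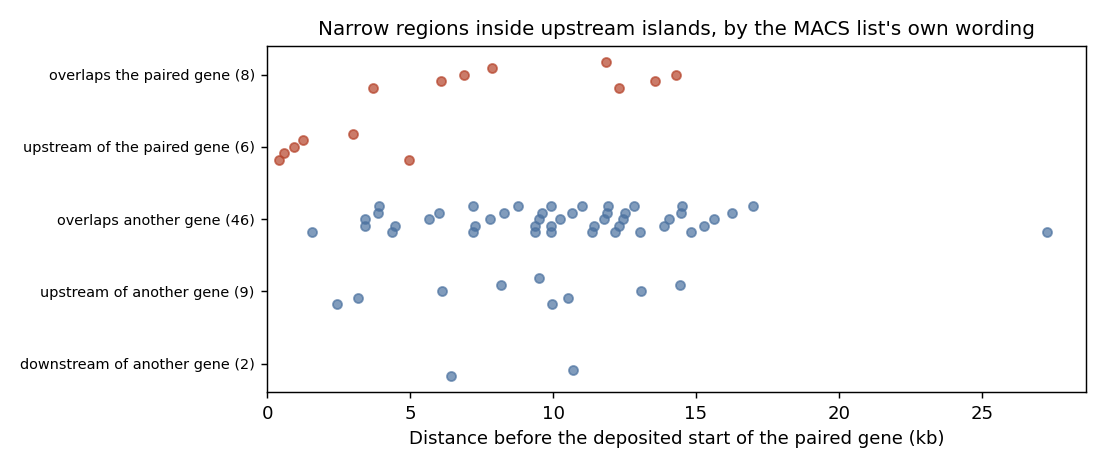
The 71 narrow regions inside upstream islands, by distance before the deposited start of the paired gene (x axis, kb) and by the gene to which the MACS list ties them; each point is a region and vertical scatter only separates points. Of these, 46 overlap another gene, and 6 lie upstream of the paired gene within 5 kb of its start.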

How the data were processed

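The authors aligned reads with Bowtie2 (version given as 2.10) and called regions with MACS (version given as 1.4) and SICER, per the submitters' processing notes. Pooling of the libraries and the choice of islands are not given in the sources used here. Both deposited lists hold positions and distances in bp, per the file headers. SICER positions stand on a 200 bp grid, and MACS positions are rounded, in steps of up to 1000 bp. The 4304 MACS lines were reduced to 1704 distinct regions, with an unreadable end set to the start. Where lines shared the same positions, the first was kept. The nearest gene and the wording given for a region are those of that line alone.

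Each island was classed by its deposited gene positions. The gap is the distance between the nearest bases of island and gene. All 913 upstream islands matched a RefSeq gene (GRCm38) by accession, symbol or unique synonym. For genes with several promoter windows, the one farthest upstream was used. Shares were compared with Fisher's exact test (scipy 1.17.1), two-sided, with Benjamini-Hochberg adjustment over 7 tests and a threshold of 0.05; the planned test of the gap is among the 7 but is not given, since the rule bears on it. The classing and tests were tested on simulated data. Named genes were the 10 widest, the 10 nearest to their gene, those with most narrow regions, genes with 3 or more upstream islands, and list members; other named genes with a narrow region or a second transcript were chosen after their values were seen. One of the named items is not reported here. Members and lists were chosen with earlier results of these data known. Alternatives covered the overlap, limits, 1 island per gene, chromosome 16 and agreement of positions.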

Additional observations from a re-analysis of the deposited data

How the results depend on the processing

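Over the 6 tested results 39 alternatives were run, and 31 kept the direction and the side of the threshold. The lower share of narrow regions in upstream islands than in islands over the start kept both under all 9 alternatives, with differences between -40.2 and -8.68 percentage points, as did the higher share than in islands past the start (3.83 to 12.0 points). The difference from downstream islands, 0.00794 points, turned to -0.139 with 1 island per gene, -0.288 without chromosome 16, -2.77 where gene positions match GRCm38, -6.73 for the finest MACS positions and -1.02 for islands over no other listed gene. None of these passed. The difference in width turned to -0.286 points at a limit of 3 kb. The share of islands near the gene, given without a test, differed from that of downstream islands by -7.66 to -2.18 points over 7 alternatives. The value of -7.66 was at a limit of 5 kb. At the limit of 2 kb the lowest was -7.25, with 1 island per gene, and the highest -2.18, where gene positions match GRCm38. The CpG-rich difference from downstream genes was -6.53 points at a ratio of 0.75 and did not pass. It turned to 3.41 points when upstream islands alone were limited to those within 2 kb of the gene. The cause was not tested. Upstream islands numbered 64 with agreeing gene positions alone and 1341 by island midpoint. The count by midpoint lies within 1.5 times the main one of 913, as do those with all transcripts (1014), with date names left out (911), without chromosome 16 (879) and with 1 per gene (799). Alternatives on width, on other listed genes, on differing positions and the CpG comparison with downstream genes were chosen after seeing the data. The planned CpG comparison with genes carrying an island over the start was not run because under 80% of those genes have a window. No paired analysis was possible because neither list gives any value for a single library, which also prevented leaving a library out.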
